A study of Homo sapiens with 4 samples.

Results

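The genes described here are 40 core components of the cell cycle engine: cyclins, cyclin-dependent kinases (CDKs), CDK inhibitors, the RB family, the E2F and DP factors, and the phosphatases, kinase and F-box proteins that act on CDKs. They were picked by name as parts of this pathway, with earlier results of these data known, and 39 of the 40 were measured, out of 18417 genes tested. CDKN2C was not analysed here. Of the 39 genes, 37 had 1 single-gene probe, and for CDK7 and WEE1 the brightest of the probes, averaged over arrays, was read.

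The cells were HuH7, a human hepatocellular carcinoma line grown in 10% serum and kept below passage 10. In the first group the cells stably expressed shRNA against MKL1 and MKL2 (2 samples), and in the second a control shRNA (2 samples). Both groups carried a lentiviral pLKO.1 construct and were selected with puromycin for 7 days, so infection and selection were common to both. The titles call the samples biological replicates without saying whether they came from separate infections, so the p-values measure the spread between these samples, which may be partly technical. MKL1 and MKL2, now named MRTFA and MRTFB, are co-activators of serum response factor (SRF) that are held back by monomeric actin, and the comparison asks which transcripts depend on them.

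A cell enters the cycle when D-type cyclins, with CDK4 or CDK6, begin to phosphorylate RB and its relatives. This frees E2F factors, which switch on the genes for cyclin E, cyclin A and DNA synthesis, and CDK2 and then CDK1 with B-type cyclins carry the cell through S phase and mitosis. INK4 inhibitors block CDK4 and CDK6, and CIP/KIP inhibitors bind the later complexes as well. Much of this control acts on proteins, through phosphorylation and degradation, and an array reads the transcripts alone. In a bulk sample, fewer cells in a given phase and less RNA per cell cannot be told apart.

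Each array gave log2 expression values, with array medians between 5.68 and 5.73. The hepatocyte markers fitted the label, since the 9 measured, among them ALB and AFP, lay between 9.95 and 12.43 in MKL1/2 shRNA cells and between 9.91 and 12.26 in control cells. The 4 leukocyte markers stayed below 5.5 on all arrays, in the range of 2.96 to 5.33 in MKL1/2 shRNA cells and 2.78 to 5.19 in control cells. All 4 leukocyte markers read higher on both MKL1/2 shRNA arrays than on both controls, by 0.10 to 0.30 on the log2 scale, and none passed (limma adjusted p of 0.254 or more). The 5 endothelial markers lay between 3.87 and 6.92 in MKL1/2 shRNA cells and between 3.84 and 6.57 in control cells, and the 5 fibroblast markers between 2.78 and 7.00 in MKL1/2 shRNA cells and between 2.66 and 7.68 in control cells. Of these COL1A2 was the furthest apart, at 6.32 and 6.80 in MKL1/2 shRNA cells, against 7.68 and 7.56 in control cells (log2 difference -1.06, adjusted p = 0.0964). Their part in the cell cycle values was not tested. The probe for MRTFA, whose annotation also lists RBM15, read 6.81 and 6.91 in MKL1/2 shRNA cells, against 7.77 and 7.80 in control cells (log2 difference -0.93, SE 0.096, limma adjusted p = 0.0404 when this probe was tested beside the 18417 genes, while no probe passed with all 33297 tested). MRTFB read 6.84 and 7.11 in MKL1/2 shRNA cells, against 7.20 and 7.22 in control cells, a log2 difference of -0.23 (SE 0.12) that did not pass (adjusted p = 0.448). SRF itself read 9.37 and 9.52 in MKL1/2 shRNA cells, against 9.80 and 9.97 in control cells (log2 difference -0.44, SE 0.113, adjusted p = 0.188). The MKL1/2 shRNA arrays differed from each other more than the control arrays did, with an SD of 0.265 over genes against 0.154.

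None of the 39 cell cycle genes passed the test in either direction. Differences were tested with limma, with p-values adjusted over all 18417 genes and a threshold of 0.05, and 0.174% of all genes passed it, 0.0923% lower and 0.0814% higher. Of the 39, 21 had a negative difference, as did 48.0% of all genes. At an unadjusted limma p under 0.05 stood 6 of the 39, against 14.3% of all genes. Of these, 5 were lower in MKL1/2 shRNA cells, where 8.04% of all genes were lower, and 1 was higher, where 6.25% of all genes were higher. The 5 lower genes were CDK4, CDK6, E2F6, RBL1 and CCNF, and the higher one was E2F2. The groups did not overlap for 17 of the 39 genes, 11 lower and 6 higher, against 45.5% of all genes in both directions (23.0% lower and 22.5% higher). The median log2 difference (MKL1/2 shRNA minus control) was -0.02 over the 39 genes and 0.01 over all genes, and the median size of a difference without its sign was 0.11 in both sets. The count of genes with non-overlapping groups thus stood close to the background.

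Under the other settings of the test, none of the listed genes passed in 13 of 14, and 1 passed in the other, the fit without MKL1/2 shRNA replicate 2. The share of all genes that passed was 0.416% without the dimmest 40% of genes, 0.261% after quantile normalization, 0.206% after median centring and 0.212% with a gene's probes averaged. It was 0.228% with an intensity trend in the moderation, 0.277% with robust moderation, 0.505% with a replicate block and 0.782% at a threshold of 0.10. It was 1.62% without MKL1/2 shRNA replicate 1 and 4.24% without MKL1/2 shRNA replicate 2. With all probes tested, with no moderation and without either control array it was 0%.

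The size of change was read for each gene with a 95% interval. The standard errors of the differences ran from 0.092 to 0.19 on the log2 scale. The 95% interval of the difference lay within 2-fold either way for all 39 genes, as it did for 97.3% of all genes, and within 0.5 on the log2 scale for 32 of the 39, against 72.6% of all genes. The lowest bound was -0.89, for E2F5, and the highest was 0.75, for CDKN2A. These intervals are per gene, without adjustment over genes, and rest on 4 arrays.

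**Figure D1:**
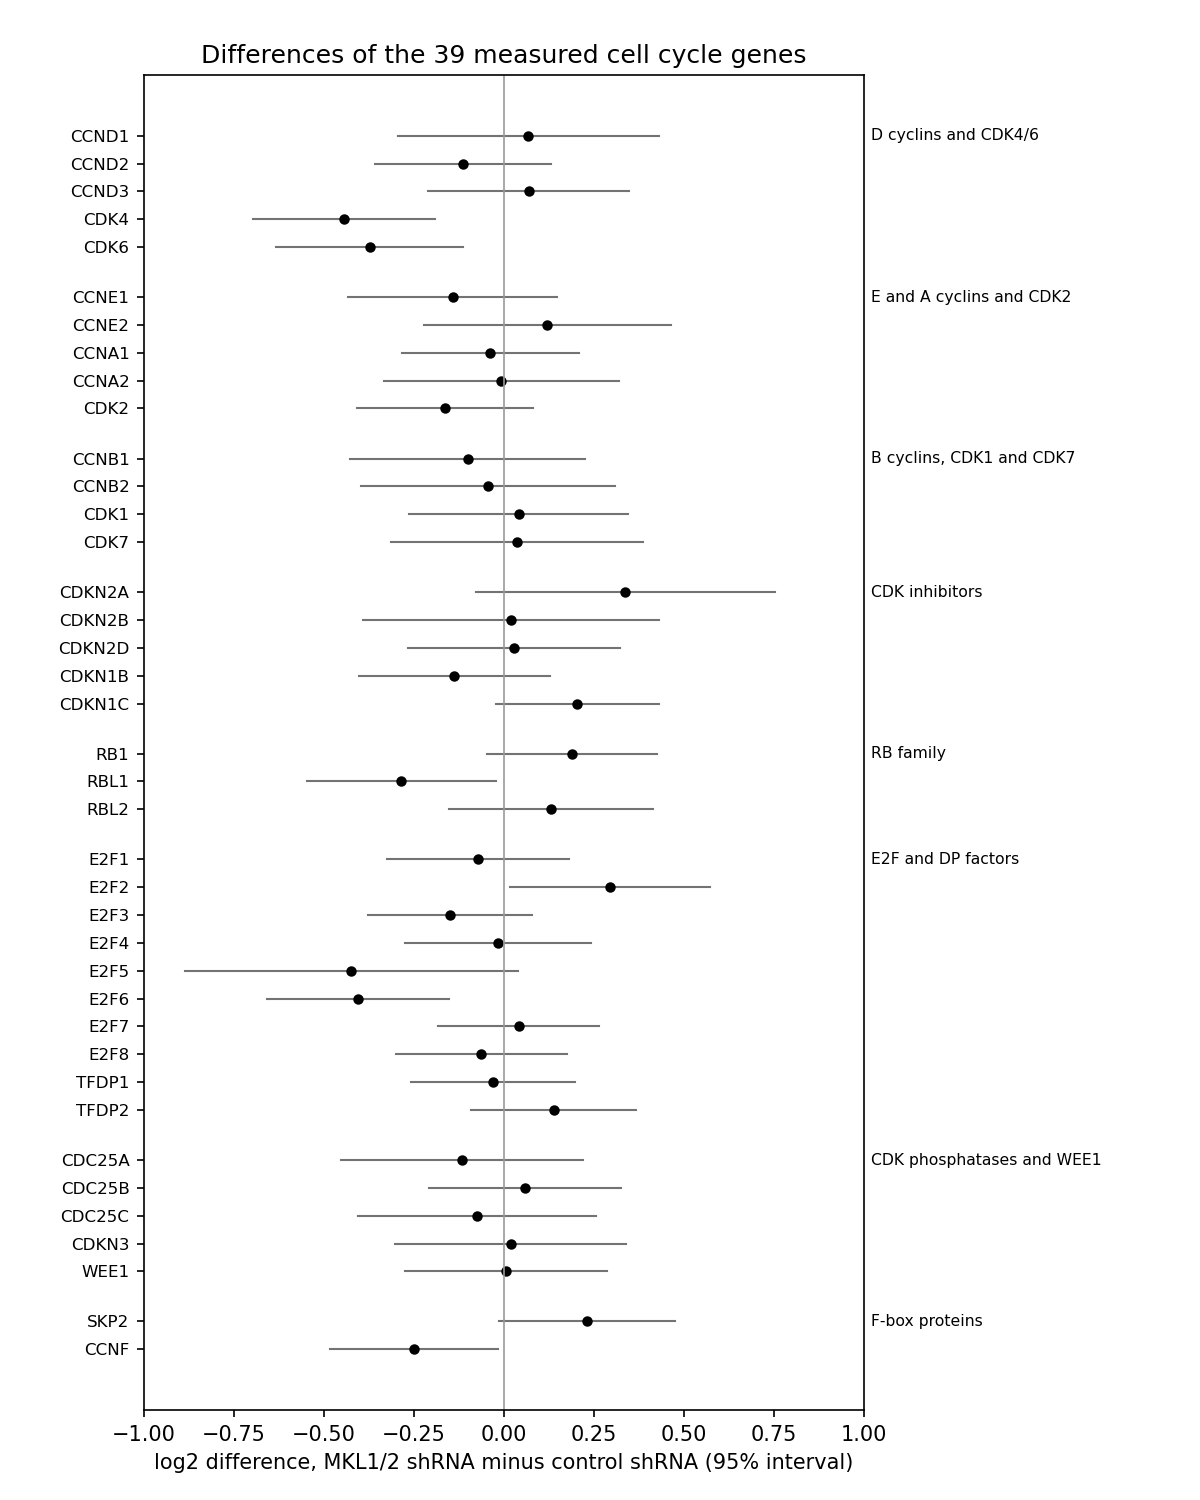
Log2 differences (MKL1/2 shRNA minus control shRNA, x axis) of the 39 measured genes, by role, with 95% intervals from limma as horizontal lines. The points run from -0.44 for CDK4 to 0.34 for CDKN2A, and 6 of the intervals do not cross 0.

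Start sites of several of these genes carry well-known cell cycle elements, and 3 promoters are shown for orientation. CDK4 and RBL1 are among the genes with an unadjusted p under 0.05, and CDK1 is shown as a mitotic gene whose level differed little. These 3, and for each the window with the most matches, were chosen after the matches had been seen. Capitals mark matches on either strand to the E2F core (the letters TTGGCGC, the variant with TTCCCGC, the one spelled TTGCCGC, and lastly TTCGCGC), the cell cycle homology region or CHR element (TTTGAA), the CCAAT box (CCAAT) and the E-box (CACGTG), and no matches of different motifs overlapped. Each is the RefSeq window of 300 bases, from 250 before to 50 after an annotated start, on build GRCh38.p14 and on the strand of the gene.
CDK4, chr12:57752261-57752560, minus strand: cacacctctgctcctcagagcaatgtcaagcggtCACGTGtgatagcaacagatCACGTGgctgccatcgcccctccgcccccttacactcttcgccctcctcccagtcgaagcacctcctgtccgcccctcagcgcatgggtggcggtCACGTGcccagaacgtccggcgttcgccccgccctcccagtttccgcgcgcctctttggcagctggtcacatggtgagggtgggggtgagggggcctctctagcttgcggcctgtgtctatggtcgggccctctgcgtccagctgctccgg
RBL1, chr20:37095948-37096247, minus strand: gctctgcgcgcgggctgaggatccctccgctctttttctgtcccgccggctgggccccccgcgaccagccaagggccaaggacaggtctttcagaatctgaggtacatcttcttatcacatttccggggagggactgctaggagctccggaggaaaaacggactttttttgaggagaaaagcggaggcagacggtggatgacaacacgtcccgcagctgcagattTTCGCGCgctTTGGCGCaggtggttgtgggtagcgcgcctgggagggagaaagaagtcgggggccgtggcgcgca
CDK1, chr10:60778228-60778527, plus strand: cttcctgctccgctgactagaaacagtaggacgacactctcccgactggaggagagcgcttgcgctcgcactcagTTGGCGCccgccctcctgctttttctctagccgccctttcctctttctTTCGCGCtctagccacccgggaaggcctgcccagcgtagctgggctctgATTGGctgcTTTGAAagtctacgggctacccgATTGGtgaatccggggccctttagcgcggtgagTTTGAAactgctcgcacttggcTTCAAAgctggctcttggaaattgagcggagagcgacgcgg

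The CDK4 window holds 3 E-boxes, a motif that was added after the sequence had been seen, and none of the other motifs. RBL1 has 2 E2F cores just before its start, and CDK1 combines 2 E2F cores, 2 CCAAT boxes and 3 CHR elements. Promoter windows were found for 32 of the 40 listed genes, 50 windows in all, and not for CCND1, CCND2, CCNE2, CDK2, CDKN1C, E2F5, E2F8 and WEE1. The E2F core was in 30.0% of these windows, against 16.3% of the 20109 windows of all genes tested. The CHR element was in 22.0% of the listed genes' windows and 12.3% of all windows, the CCAAT box in 44.0% and 34.6%, and the E-box in 16.0% and 8.32%. The CArG box, the motif bound by SRF, was in 0 of the 50 windows and in 1.25% of all windows, which says only that these letters are not in these stretches. The matches describe the sequences. Apart from the choice of the 3 promoters shown, they were not set against the expression values, and no relation was tested.

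CDK4 and CDK6, the kinases that start RB phosphorylation, had the largest differences of the first step, both lower in MKL1/2 shRNA cells. Of the D-type cyclins, CCND2 was slightly lower without overlap and CCND1 and CCND3 overlapped, and none of the 5 genes passed. CDK4 read 10.32 and 10.46 in MKL1/2 shRNA cells, against 10.88 and 10.79 in control cells. CDK6 read 7.83 and 7.95 in MKL1/2 shRNA cells, against 8.33 and 8.19 in control cells. For both genes each MKL1/2 shRNA array lay below each control array. The difference of CDK4 was -0.44 on the log2 scale (SE 0.103, 95% interval -0.70 to -0.19), or 0.735 of the control level, with an adjusted p of 0.162, so it did not pass. CDK6 differed by -0.37 (SE 0.106, 95% interval -0.63 to -0.11), or 0.772 of the control level, and also did not pass (adjusted p = 0.218). Over the alternative settings the difference of CDK4 ranged from -0.52 to -0.37 and that of CDK6 from -0.44 to -0.30, with adjusted p-values of 0.0579 or more.

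Cyclin D1, the growth factor-responsive partner of CDK4 and CDK6, did not separate the groups. CCND1 read 9.65 and 10.06 in MKL1/2 shRNA cells, against 9.79 and 9.79 in control cells, so the MKL1/2 shRNA arrays lay on either side of the near-equal controls. Its difference was 0.07 (SE 0.149, 95% interval -0.30 to 0.43, adjusted p = 0.888). Cyclin D3 overlapped too, with CCND3 at 7.53 and 7.69 in MKL1/2 shRNA cells, against 7.45 and 7.63 in control cells (log2 difference 0.07, adjusted p = 0.849). Cyclin D2 was dim, with CCND2 at 4.64 and 4.55 in MKL1/2 shRNA cells, against 4.65 and 4.76 in control cells, the groups just apart (log2 difference -0.11, adjusted p = 0.679). No background level stands behind such values, and the lower quartile of all probes was 3.99 to 4.02.

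**Figure D2:**
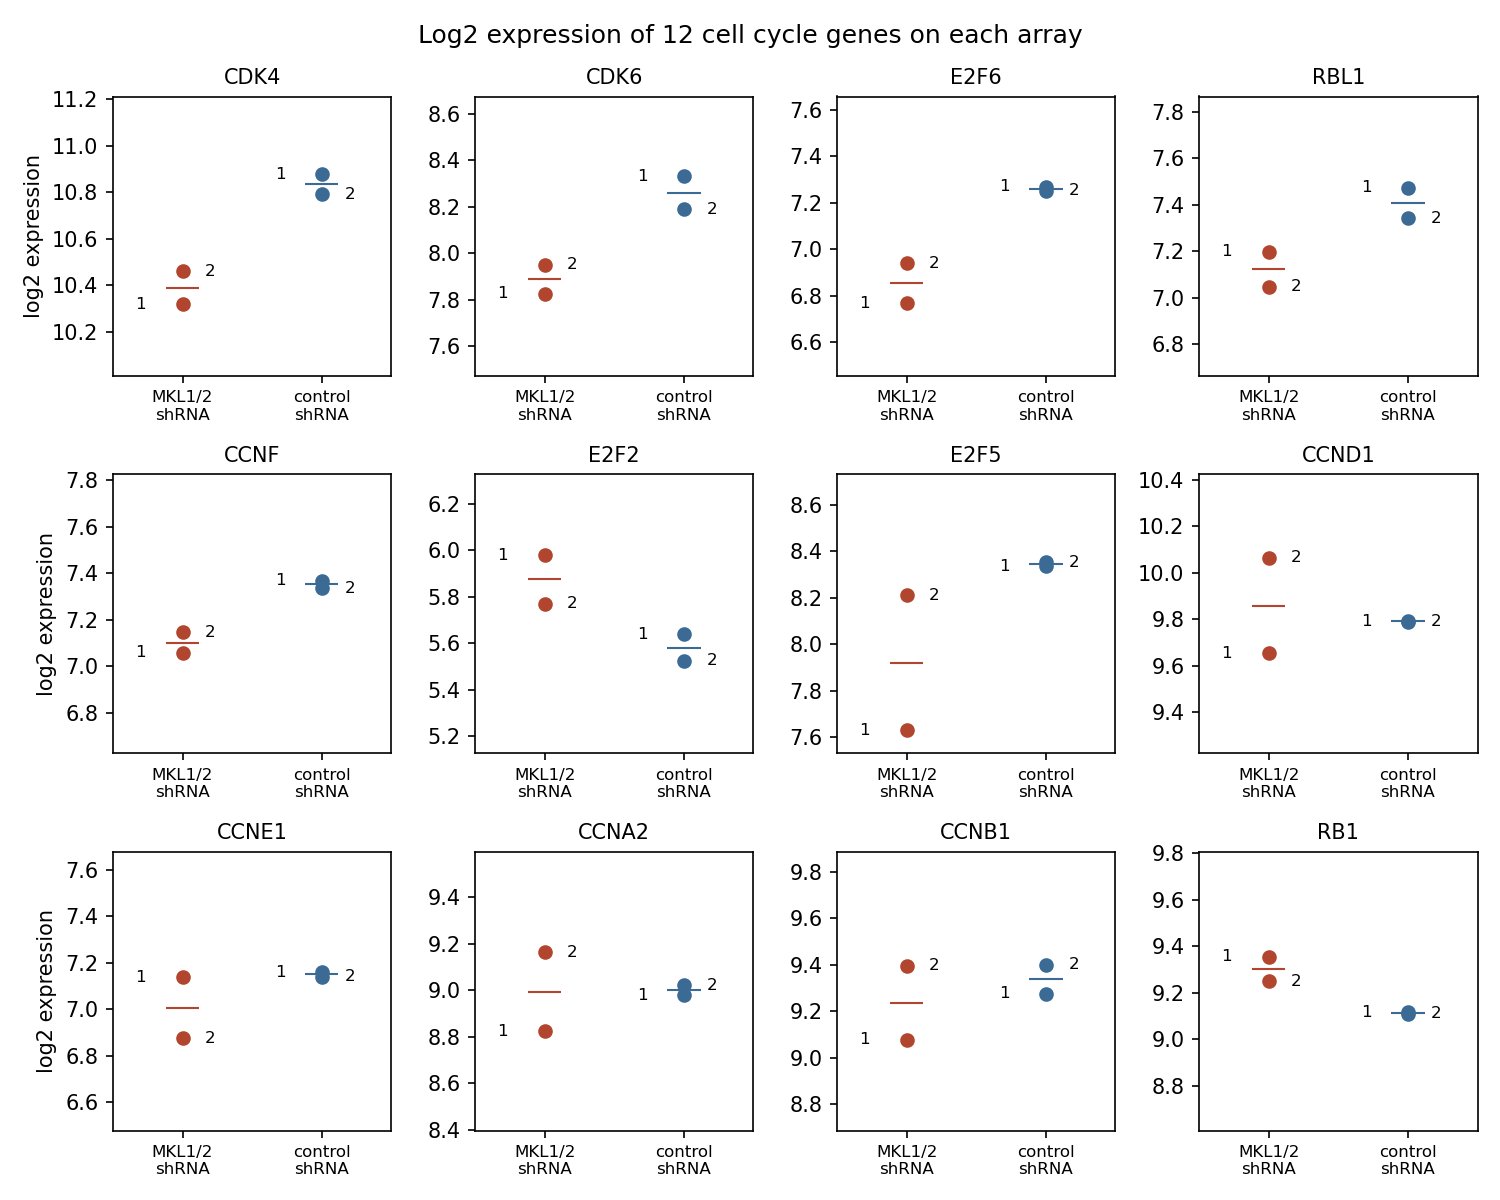
Log2 expression (y axis, 1.2 log2 units in every panel) of 12 of the genes in MKL1/2 shRNA cells (left) and control shRNA cells (right). Each point is 1 array labelled by its replicate number and the short bar is the mean of 2 arrays. CDK4, CDK6, E2F6, RBL1 and CCNF lie lower and E2F2 higher without overlap, and CCND1, CCNA2 and CCNB1 overlap.

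The genes of the next step, which drive entry into and passage through S phase, showed no call. CDK2, the partner of cyclins E and A, read 8.48 and 8.63 in MKL1/2 shRNA cells, against 8.71 and 8.73 in control cells, a small difference without overlap (-0.16, SE 0.101, adjusted p = 0.523). CCNE1, which encodes cyclin E1, read 7.14 and 6.87 in MKL1/2 shRNA cells, against 7.16 and 7.14 in control cells. Its first MKL1/2 shRNA array was almost level with the controls and the second lay below them (log2 difference -0.14, SE 0.119, adjusted p = 0.653). CCNE2, the other cyclin E gene, read 7.34 and 7.68 in MKL1/2 shRNA cells, against 7.46 and 7.31 in control cells, and overlapped. CCNA2, the cyclin A of dividing somatic cells, read 8.82 and 9.16 in MKL1/2 shRNA cells, against 8.98 and 9.02 in control cells. The controls of CCNA2 lay between its MKL1/2 shRNA arrays, and the difference was -0.01 (SE 0.134, 95% interval -0.33 to 0.32, adjusted p = 0.989). CCNA1, the germline form of cyclin A, was dim, between 4.90 and 4.99 in MKL1/2 shRNA cells and between 4.93 and 5.04 in control cells.

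The mitotic cyclins and CDK1 also overlapped between the groups. CCNB1, which encodes the main mitotic cyclin, read 9.08 and 9.39 in MKL1/2 shRNA cells, against 9.27 and 9.40 in control cells (log2 difference -0.10, SE 0.134, adjusted p = 0.795). CCNB2 read 8.29 and 8.61 in MKL1/2 shRNA cells, against 8.61 and 8.39 in control cells (log2 difference -0.05, SE 0.145, adjusted p = 0.927). CDK1, whose promoter above carries all 3 cell cycle motifs, read 7.98 and 8.14 in MKL1/2 shRNA cells, against 8.15 and 7.90 in control cells. Its difference was 0.04 (SE 0.125, 95% interval -0.26 to 0.35, adjusted p = 0.925). CDK7, the kinase that activates other CDKs, read 7.38 and 7.65 in MKL1/2 shRNA cells, against 7.34 and 7.62 in control cells, and its 2 probes held the same values. For CCNB1, CCNB2, CDK1 and CDK7 the first MKL1/2 shRNA array read below the second.

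Among the CDK inhibitors 4 of 5 had positive differences and 1 a negative one, and none passed. CDKN2A, the locus of p16 and of the overlapping ARF transcript that shares its exons, read 7.04 and 7.38 in MKL1/2 shRNA cells, against 6.69 and 7.06 in control cells. The lower MKL1/2 shRNA array lay just below the higher control, and the difference of 0.34 had the highest upper bound of the 39 genes (SE 0.17, 95% interval -0.08 to 0.75, adjusted p = 0.433). CDKN1C, the CIP/KIP inhibitor p57, read 7.56 and 7.51 in MKL1/2 shRNA cells, against 7.34 and 7.32 in control cells. These groups did not overlap and the arrays of each group lay close together, but the difference of 0.20 did not pass (SE 0.093, adjusted p = 0.389). That SE is moderated over all genes. Without moderation the SE of CDKN1C was 0.025, and the difference did not pass there either (unmoderated t-test, adjusted p = 0.472). CDKN1B, which encodes the CDK2 inhibitor p27, read 7.87 and 7.76 in MKL1/2 shRNA cells, against 8.04 and 7.86 in control cells, and overlapped (log2 difference -0.14, adjusted p = 0.633). CDKN2B, the neighbour of CDKN2A that encodes p15, read 6.65 and 7.08 in MKL1/2 shRNA cells, against 6.96 and 6.72 in control cells, and CDKN2D, which encodes p19, read 7.21 and 6.94, against 7.06 and 7.03 in control cells. Both of these INK4 genes differed by 0.03 or less.

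CDKN1A, the p53-responsive inhibitor p21, is outside the 40 genes and was given here for comparison. It read 6.99 and 6.48 in MKL1/2 shRNA cells, against 6.29 and 6.31 in control cells, with a difference of 0.43 (SE 0.171, adjusted p = 0.333). Most of that difference came from the first MKL1/2 shRNA array, which lay 0.68 above the control mean, against 0.18 for the second.

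In the RB family the differences had both signs. RBL1, which encodes p107, read 7.20 and 7.05 in MKL1/2 shRNA cells, against 7.47 and 7.34 in control cells, a difference of -0.29 (SE 0.108, 95% interval -0.55 to -0.02, adjusted p = 0.316). RB1, the retinoblastoma gene, read 9.36 and 9.25 in MKL1/2 shRNA cells, against 9.12 and 9.11 in control cells, a difference of 0.19 (SE 0.097, 95% interval -0.05 to 0.42, adjusted p = 0.439). Neither gene overlapped between the groups, with RBL1 lower and RB1 higher in MKL1/2 shRNA cells, and neither passed. RBL2, which encodes p130, the partner of E2F4 in resting cells, read 6.71 and 6.89 in MKL1/2 shRNA cells, against 6.76 and 6.58 in control cells, and overlapped (log2 difference 0.13, adjusted p = 0.682).

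The E2F factors fall into activators (E2F1, E2F2 and E2F3), repressors that work with RB relatives or Polycomb proteins (E2F4, E2F5 and E2F6) and atypical repressors that need no DP partner (E2F7 and E2F8). Among the activators, E2F2 read 5.98 and 5.77 in MKL1/2 shRNA cells, against 5.64 and 5.52 in control cells, around the array medians. It was higher without overlap (log2 difference 0.29, SE 0.114, 95% interval 0.02 to 0.57), and did not pass (adjusted p = 0.326). E2F1 overlapped, at 8.68 and 8.63 in MKL1/2 shRNA cells, against 8.65 and 8.81 in control cells (log2 difference -0.07, adjusted p = 0.815). E2F3 was slightly lower without overlap, at 7.09 and 7.16 in MKL1/2 shRNA cells, against 7.28 and 7.28 in control cells (log2 difference -0.15, SE 0.094, adjusted p = 0.530).

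Among the repressors, E2F6, a member of Polycomb complexes, had the second smallest p of the 39 genes after CDK4. E2F6 read 6.77 and 6.94 in MKL1/2 shRNA cells, against 7.27 and 7.25 in control cells, and the difference was -0.41 (SE 0.104, 95% interval -0.66 to -0.15, adjusted p = 0.191). E2F5 read 7.63 and 8.21 in MKL1/2 shRNA cells, against 8.34 and 8.35 in control cells. Both MKL1/2 shRNA arrays lay below the controls, the first by far more than the second, and the difference of -0.42 had the largest SE of the 39 genes (0.19, adjusted p = 0.381). E2F5 was the 1 listed gene that passed in any of the alternative settings: without MKL1/2 shRNA replicate 2 its difference was -0.71 (limma adjusted p = 0.0291), where 2.40% of all genes passed as lower. That fit has 1 MKL1/2 shRNA array, so its residual spread comes from the 2 controls alone and the lone array is assumed to vary like them. Without MKL1/2 shRNA replicate 1 the difference of E2F5 was -0.13. E2F4, the main E2F of resting cells, overlapped, at 9.28 and 9.31 in MKL1/2 shRNA cells, against 9.40 and 9.22 in control cells (log2 difference -0.02, adjusted p = 0.967).

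The atypical factors and the DP partners had small differences and no call. E2F7 differed by 0.04 (95% interval -0.18 to 0.26) and E2F8 by -0.06 (95% interval -0.30 to 0.17), with adjusted p-values of 0.894 and 0.833, and for both the groups lay apart by little. TFDP1, the common DP partner, read 10.54 and 10.47 in MKL1/2 shRNA cells, against 10.54 and 10.53 in control cells, and its 95% interval ran from -0.26 to 0.20. TFDP2, the other DP gene, read 7.30 and 7.37 in MKL1/2 shRNA cells, against 7.21 and 7.18 in control cells, higher without overlap by 0.14 (SE 0.094, adjusted p = 0.570).

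The phosphatases and the kinase that set CDK activity overlapped between the groups in all 5 cases. CDC25A, which activates CDK2 and CDK1, read 7.94 and 8.29 in MKL1/2 shRNA cells, against 8.19 and 8.27 in control cells (log2 difference -0.12, SE 0.138, adjusted p = 0.766). The mitotic phosphatase genes CDC25B and CDC25C differed by 0.06 and -0.08, and CDKN3, a phosphatase that acts on CDK2, by 0.02. WEE1, the inhibitory kinase of CDK1, differed by 0.01 with the probe used, and its other probes gave 0.09 and -0.28. For all 5 genes the first MKL1/2 shRNA array read below the second.

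The F-box proteins of the list differed in opposite directions. CCNF, which encodes cyclin F, an F-box protein that directs cell cycle proteins to degradation, read 7.06 and 7.15 in MKL1/2 shRNA cells, against 7.37 and 7.34 in control cells. SKP2, whose product directs p27 to degradation, read 11.02 and 11.15 in MKL1/2 shRNA cells, against 10.88 and 10.83 in control cells. CCNF was lower by 0.25 (SE 0.096, 95% interval -0.48 to -0.02, adjusted p = 0.320) and SKP2 higher by 0.23 (SE 0.1, 95% interval -0.01 to 0.47, adjusted p = 0.370), and neither passed.

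The 2 MKL1/2 shRNA arrays did not place the cell cycle genes alike. On the first array 29 of the 39 genes lay below their control mean, against 46.9% of all genes, and on the second 16 of the 39 did, against 51.9% of all genes. The median over the 39 genes was -0.08 on the first array and 0.06 on the second, against 0.02 and -0.01 over all genes. Of the 39 genes, 28 read lower on the first array than on the second, against 47.6% of all genes. By role, this held for 4 of 4 genes of the mitotic cyclin, CDK1 and CDK7 group and for 5 of 5 CDK phosphatase and WEE1 genes. It held for 4 of 5 genes of the cyclin E, cyclin A and CDK2 group. The same was true of 4 of 5 genes of the D cyclin and CDK4/6 group and 2 of 2 F-box genes. It held for 6 of 10 E2F and DP genes, but for 2 of 5 CDK inhibitors and 1 of 3 RB family genes. Outside the 39, it held for 20 of 25 cyclins and CDKs beyond the core engine. Among the cell type markers it held for 4 of 9 hepatocyte, 1 of 4 leukocyte, 0 of 5 endothelial and 3 of 5 fibroblast genes. Whether the gap between the arrays varies with expression level was not tested. The largest gap among the 39 genes was that of E2F5, at 0.58, followed by CDKN2B at 0.43 and CCND1 at 0.41. The median size of the gap over the 39 genes was 0.16 between the MKL1/2 shRNA arrays and 0.11 between the control arrays, against 0.14 and 0.09 over all genes. Its part in the group differences was not tested, beyond the values without each array.

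**Figure D3:**
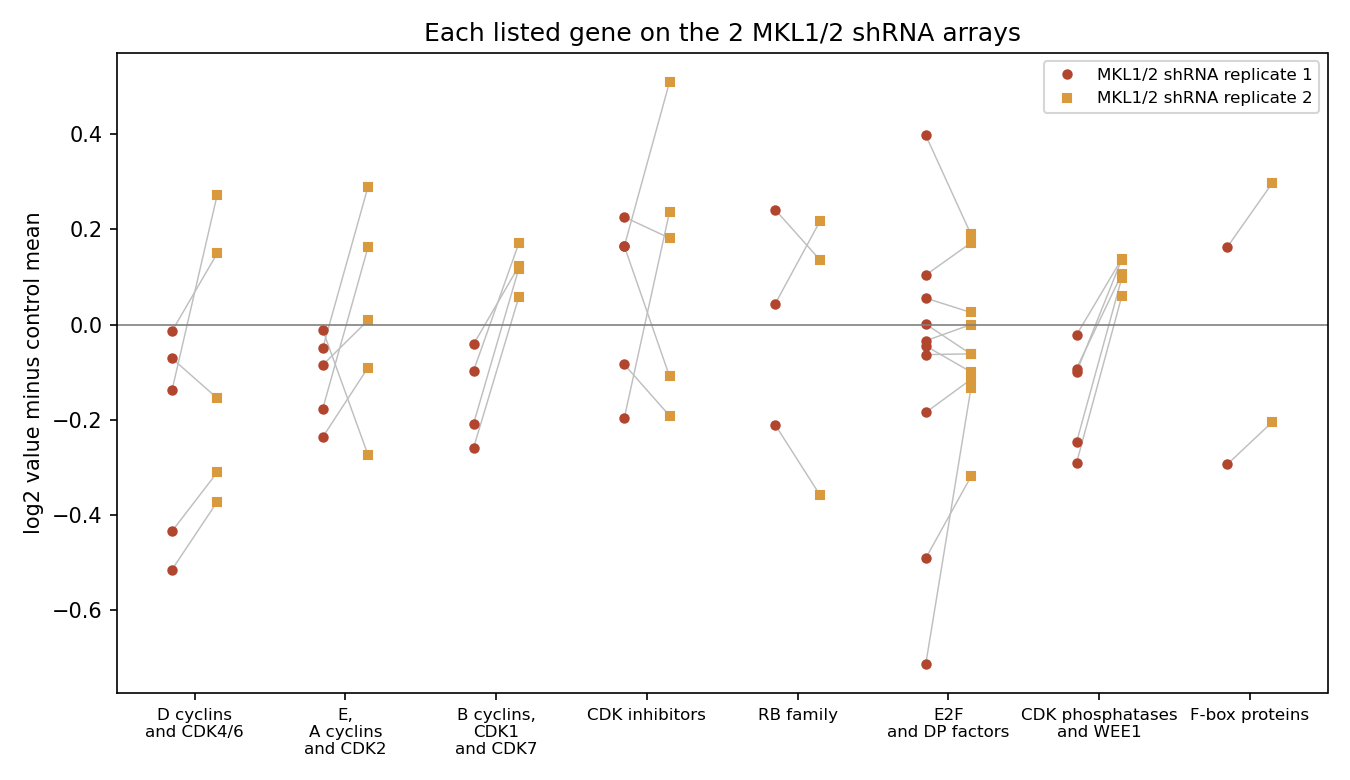
Log2 value minus control mean (y axis) of each of the 39 genes on MKL1/2 shRNA replicate 1 (circles) and replicate 2 (squares), by role (x axis), with a line joining the values of 1 gene. All mitotic cyclin, CDK1, CDK7, CDK phosphatase and WEE1 points lie below 0 on replicate 1 and above 0 on replicate 2, and CDK4, CDK6 and E2F6 lie at -0.31 or lower on both arrays.

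Genes that E2F factors and the DREAM and MYBL2-FOXM1 complexes control had negative median differences, mainly on the first MKL1/2 shRNA array, and none passed. Of 27 measured G1/S genes controlled by E2F, 5 were lower and none higher at an unadjusted limma p under 0.05, where 8.04% of all genes were lower and 6.25% higher. Of these 27, 19 had a negative difference, where 48.0% of all genes did. The groups did not overlap for 12 of them, all lower, against 23.0% lower and 22.5% higher over all genes. The median difference was -0.11, against 0.01 over all genes. The list's median was -0.24 on the first MKL1/2 shRNA array and -0.02 on the second. The control arrays differed for this list as well. The median of the second control minus the first was -0.11, as large as the group difference, against -0.003 over all genes. ORC1, a subunit of the origin recognition complex, read 6.75 and 6.64 in MKL1/2 shRNA cells, against 7.20 and 7.03 in control cells (log2 difference -0.42, SE 0.108, adjusted p = 0.188). The replication factor gene MCM10 and the Polycomb methyltransferase gene EZH2 differed by -0.42 (adjusted p = 0.243) and -0.40 (adjusted p = 0.254). Of 24 measured G2/M genes, 3 were lower and none higher at an unadjusted p under 0.05, a count near the same background of 8.04% and 6.25%. Of these 24, 21 had a negative difference, where 48.0% of all genes did. The groups did not overlap for 14 of them, all lower, against the same 23.0% lower and 22.5% higher over all genes. The median difference was -0.16. That median was -0.29 on the first MKL1/2 shRNA array and -0.03 on the second. For these genes the median of the second control minus the first was -0.03. PLK1, a kinase of mitotic entry, read 10.19 and 10.17 in MKL1/2 shRNA cells, against 10.73 and 10.66 in control cells, so that unlike the list it was as low on the second array as on the first (log2 difference -0.52, SE 0.094, adjusted p = 0.12). BIRC5, which encodes survivin, and FOXM1, a mitotic transcription factor, differed by -0.31 (adjusted p = 0.317) and -0.30 (adjusted p = 0.332).

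**Figure D4:**
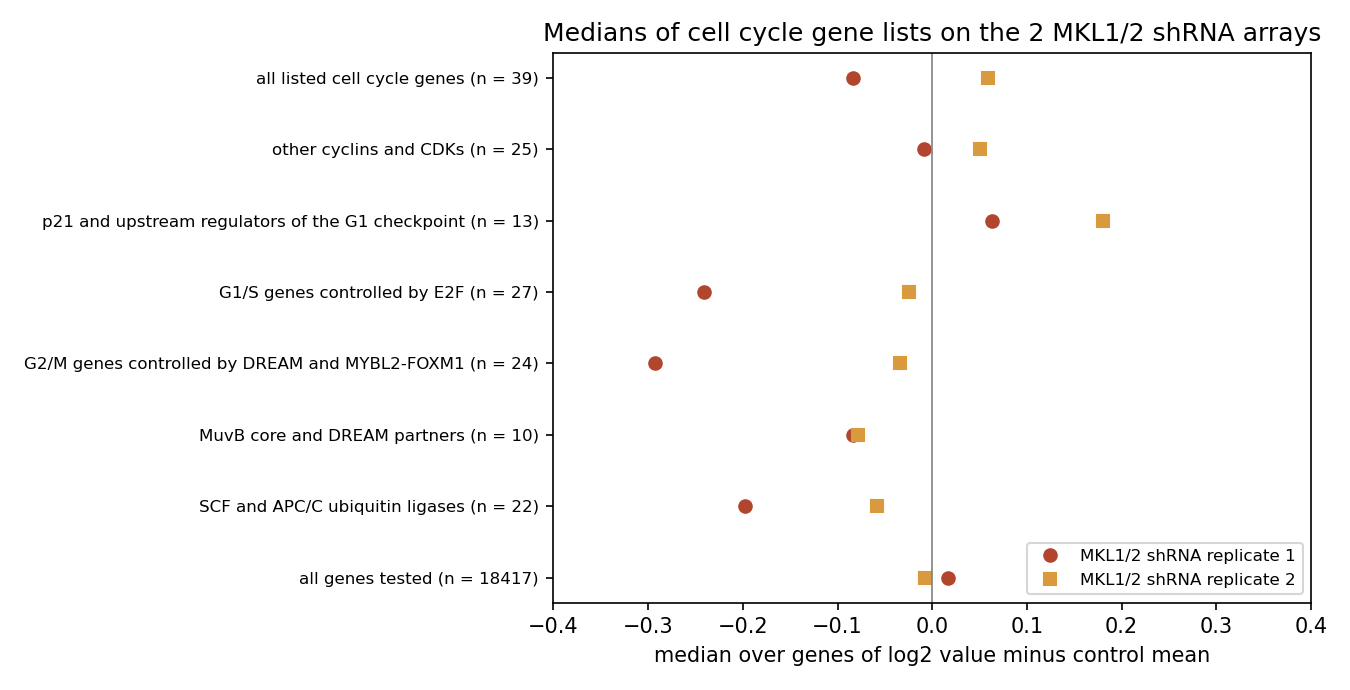
Median over genes of the log2 value minus the control mean (x axis) for the 39 genes, 6 further cell cycle lists and all genes tested, on MKL1/2 shRNA replicate 1 (circles) and replicate 2 (squares). The lists of G1/S and G2/M genes lie at -0.24 and -0.29 on replicate 1 and near 0 on replicate 2.

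Regulators above the G1 checkpoint had no call either. Of 13 measured, 2 were higher and none lower at an unadjusted limma p under 0.05, against 6.25% higher and 8.04% lower over all genes, and the median difference was 0.04. The 2 were CDKN1A and CHEK2, a kinase of the DNA damage checkpoint, which read 6.95 and 6.82 in MKL1/2 shRNA cells, against 6.56 and 6.54 in control cells (log2 difference 0.33, SE 0.099, adjusted p = 0.227). MDM2, the ubiquitin ligase of p53, read 8.51 and 8.39 in MKL1/2 shRNA cells, against 8.85 and 8.62 in control cells (log2 difference -0.29, adjusted p = 0.353).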

How the data were processed

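Total RNA of 4 HuH7 samples was labelled with biotin and hybridised to whole-transcript arrays, 1 array per sample. The titles gave each sample its group and number. The values are log2 expression per probe for 33297 probes, as the authors deposited them. Per the submitters' processing notes Partek was used, and how background was corrected or arrays were normalized is not given in the sources used here. That the deposited values are log2 was read from their range, 1.03 to 13.65. No background level is known, and dim genes were kept.

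Probes were named from the platform annotation: 19460 list 1 symbol, 1754 list several, and 12083 have no entry. Entrez identifiers gave current symbols for 19429 in RefSeq GRCh38.p14, and the brightest probe stood for a gene. Groups were compared in R 4.3.3 by the moderated two-sided test of limma 3.58.1 (lmFit, then eBayes; no covariates; 2 residual and 4.12 prior degrees of freedom), with Benjamini-Hochberg adjustment over 18417 genes and a threshold of 0.05. The procedure was tested on simulated data, where false calls stayed near the threshold with variances drawn from limma's fitted prior and exceeded it with variances drawn from the moderated estimates. Errors are limma's moderated standard errors, and the number of arrays limits the precision. The listed genes, the further lists and the tests were chosen with earlier results of these data known. All 40 listed genes are named, with full values for those at an unadjusted p under 0.05, with groups apart by 0.3 or more, or central to their role, and the 3 genes with the smallest p in each further list. Alternatives dropped the dimmest 40% of genes, renormalized by quantiles or medians, averaged probes, tested all probes, changed or removed the moderation, used a threshold of 0.10, added a replicate block and left out each array.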

Additional observations from a re-analysis of the deposited data

How the results depend on the processing

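Over all genes, 17 were lower and 15 higher in limma. Counts of lower genes were 27 without the dimmest 40% of genes, 27 after quantile normalization and 28 with robust eBayes, where 23 were higher. At a threshold of 0.10 they were 78 lower and 66 higher. With all probes tested and without moderation 0 genes passed in either direction (3486 probes and 1840 genes at an unadjusted p under 0.05). With the replicate number as a block 38 were lower and 55 higher, and no listed gene changed its call. Arrays that share a number were treated as unpaired: their deviations from the group means correlated at -0.067 over genes. Leaving out 1 array gave between 0 and 442 lower and between 0 and 339 higher genes. Both limits of 0 came without a control array, where 866 (without replicate 1) and 1219 (without replicate 2) had an unadjusted p under 0.05. Without MKL1/2 shRNA replicate 1 there were 135 lower and 164 higher.

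Among the listed genes, 0 to 1 was called lower and 0 higher when an array was left out, the 1 being E2F5 without MKL1/2 shRNA replicate 2. No listed gene passed under the other settings. The median of the listed genes lay between -0.08 without MKL1/2 shRNA replicate 2 and 0.06 without MKL1/2 shRNA replicate 1, and was 0.01 after quantile normalization. The sign was opposite to that reported for 29 of 156 gene values with an array left out and for 7 of the 79 that renormalizing or averaging probes moved, none of them called. The other settings change the test and not the estimate. Fits without an array have 1 array in a group, assumed to vary like the other group. CCND2, CCNA1 and E2F2 were not tested without the dimmest genes, and no background level is known for any probe.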

Other observations

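Genes of the ubiquitin system that times the destruction of cyclins were mostly on the low side in MKL1/2 shRNA cells, without a call. Of 22 measured genes of SCF, APC/C and their regulators, 19 had a negative difference and 3 a positive one. Over all genes, 48.0% were negative. At an unadjusted limma p under 0.05, 3 were lower and none higher, near the 8.04% lower and 6.25% higher over all genes. The groups did not overlap for 11 of the 22, 10 lower and 1 higher, against 23.0% lower and 22.5% higher over all genes. CDC20 and UBE2C were counted in the G2/M list as well. ANAPC1, the largest APC/C subunit, read 7.10 and 7.55 in MKL1/2 shRNA cells, against 7.88 and 7.82 in control cells (log2 difference -0.52, SE 0.159, adjusted p = 0.237). USP37, a deubiquitinase of cyclin A, differed by -0.35 (adjusted p = 0.248) and FBXW7, the F-box protein that targets cyclin E, by -0.36 (adjusted p = 0.283). The list's median was -0.20 on the first MKL1/2 shRNA array and -0.06 on the second. Of the 10 MuvB and DREAM partner genes, LIN54, a DNA-binding subunit, was the 1 at an unadjusted p under 0.05 (log2 difference -0.26, adjusted p = 0.319), followed by the histone deacetylase gene HDAC1 and the MuvB subunit gene LIN9, both at -0.23.

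Cyclins and CDKs outside the core engine went both ways. Of 25 measured, 3 were lower and 2 higher at an unadjusted limma p under 0.05, near the 8.04% and 6.25% over all genes, and none passed, with a median difference of 0.02. Between the MKL1/2 shRNA arrays, 20 of the 25 read lower on the first than on the second, against 47.6% of all genes. CCNG2, a cyclin of resting cells, read 7.04 and 6.87 in MKL1/2 shRNA cells, against 6.42 and 6.58 in control cells (log2 difference 0.45, SE 0.114, adjusted p = 0.185). CCNT2, a partner of the transcription kinase CDK9, read 7.66 and 7.87 in MKL1/2 shRNA cells, against 8.24 and 8.15 in control cells (log2 difference -0.43, SE 0.112, adjusted p = 0.198). CDK13, another kinase of transcription, differed by -0.38 (adjusted p = 0.277).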
